A study of Mus musculus with 9 samples.

Results

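This section describes nuclear short fragments, that is, reads of 14 to 17 nt that aligned to the mouse genome (build mm9) outside the mitochondrial chromosome, in 9 small RNA-seq libraries. Expected counts of such reads were summed by 5′ end, and the 5′ ends whose counts summed to at least 50 over the 9 libraries were kept: 11810 of the 1377971 nuclear 5′ ends with a short read. The members were therefore selected on their measured totals, and these totals are given as a description. The lowest member total was 50, the median 117 and the highest 1003790, with 1634 members between 50 and 60 and 2204 5′ ends left out between 40 and 50. Of the members, 218 lay on a listed miRNA and 11592 elsewhere. A listed miRNA is one of the 414 names in the study's lists of highly expressed miRNAs, and a 5′ end counted as lying on it from 5 nt before to 8 nt after its 5′ end, on the same strand. The 218 members on miRNAs held 0.947% of the members' counts. Of the members elsewhere, 196, with 0.528% of the counts, held reads that were also placed on a listed miRNA.

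Of the libraries, 7 came from MIN6 cells, a mouse insulinoma line used as a model of the pancreatic beta cell, grown in DMEM with 25 mM glucose and 10% heat-inactivated fetal bovine serum. Of these, 3 were made with the Illumina TruSeq kit (TS-GAIIx), 3 with the older Illumina v1.5 kit (v1.5-GAIIx), and 1 with the Bioo Scientific NEXTflex V2 kit (NF-HiSeq-6), whose adapters end in degenerate bases. The other 2 libraries, TruSeq (TS-HiSeq-ML) and NEXTflex (NF-HiSeq-ML), were made from the same liver RNA of a single C57BL/6J female mouse, bought at 9 weeks of age as a control, given saline by tail vein and fasted overnight. The MIN6 TruSeq and v1.5 libraries were sequenced on the GAIIx at the same facility and date. NF-HiSeq-6 differed from them in RNA source, platform, facility and date as well as in kit, so these cannot be told apart. The study calls the 3 libraries of a kit biological replicates, but the labels do not say that they came from separate cultures, so p-values measure the spread between these libraries. The NEXTflex and liver groups hold 1 library each and were not tested.

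MicroRNAs are cut by Dicer from hairpin precursors to mature strands of a little over 20 nt, and bases 2 to 8, the seed, pair with target mRNAs. In small RNA-seq, adapters are ligated to the 3′ and 5′ ends of the RNA, and ligases differ in how readily they join particular ends. Reads shorter than a mature miRNA can come from pieces of miRNAs or of larger RNAs such as rRNA, tRNA and snoRNA, and such short reads often match the genome at several places. The study asked how the kit changes which small RNAs are detected. The same question is put here to the shortest reads, which fall outside the length of a mature miRNA.

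The miRNAs on which the short reads turned were the following, with the seed in capitals. The first group shares the let-7 seed, the second the miR-30 seed, and the others have a seed of their own. Sequences are the mature strands of RefSeq (GRCm38.p6). RefSeq's table used here gave no entry for miR-30d-5p or miR-375-3p.
let-7a-5p: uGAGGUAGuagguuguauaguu
let-7b-5p: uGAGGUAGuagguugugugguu
let-7c-5p: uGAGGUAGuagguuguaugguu
miR-30a-5p: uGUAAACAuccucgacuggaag
miR-30e-5p: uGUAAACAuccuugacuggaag
miR-127-3p: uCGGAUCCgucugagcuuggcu
miR-16-5p: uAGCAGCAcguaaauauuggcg
miR-29a-3p: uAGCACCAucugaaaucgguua
miR-379-5p: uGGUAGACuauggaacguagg
miR-7a-5p: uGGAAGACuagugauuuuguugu
miR-27b-3p: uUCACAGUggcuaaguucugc
miR-183-5p: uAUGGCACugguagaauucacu

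As a check of the labels, miR-375-3p, a defining miRNA of the beta cell, had 163124 to 186331 RPMM of any length (RPMM: counts scaled to 1000000 mapped reads) in the 3 TruSeq MIN6 libraries, 72816 to 87327 in v1.5 and 64950 in NF-HiSeq-6, against 39.97 and 26.7 in the TruSeq and NEXTflex liver libraries. The hepatocyte miRNA miR-122-5p had 17244 RPMM in TS-HiSeq-ML and 532452 in NF-HiSeq-ML, 0.151 to 2.38 in the Illumina MIN6 libraries and 128 in NF-HiSeq-6. Both liver libraries also held blood and endothelial miRNAs. The 3 blood entries summed to 10188 RPMM in TS-HiSeq-ML and 1730 in NF-HiSeq-ML against 2.46 to 41.6 in MIN6, and the 2 miR-126 entries to 8968 and 2725 against 84.9 to 287. Their part in the short reads was not tested. Mapped reads per library ranged from 6644520 to 25566100. In all, 7750 members had reads with more than 1 place, among which the authors divided the read, and 3369 had 10 or more places. The 11810 members were therefore not independent: they came from 5711 distinct reads.

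The share of nuclear reads that were 14 to 17 nt was higher in the TruSeq libraries than in the others. It was 21.5%, 17.9% and 18.5% in the 3 TruSeq MIN6 libraries and 7.57%, 7.65% and 4.82% in the 3 v1.5 libraries. The groups did not overlap, with means of 19.3% ± 1.95 (SD, n = 3) and 6.68% ± 1.61 (exact permutation test, two-sided, p = 0.1; with 3 libraries against 3 no smaller p can be had). In the single libraries the share was 2.03% in NF-HiSeq-6 (95% Wilson interval 2.03% to 2.04%), 10.0% in TS-HiSeq-ML (10.0% to 10.1%) and 1.94% in NF-HiSeq-ML (1.94% to 1.95%). NF-HiSeq-6 was thus below all 6 Illumina MIN6 libraries, and NF-HiSeq-ML below TS-HiSeq-ML. The intervals cover counting error only, since reads carried no molecular identifiers and were divided among places.

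**Figure D1:**
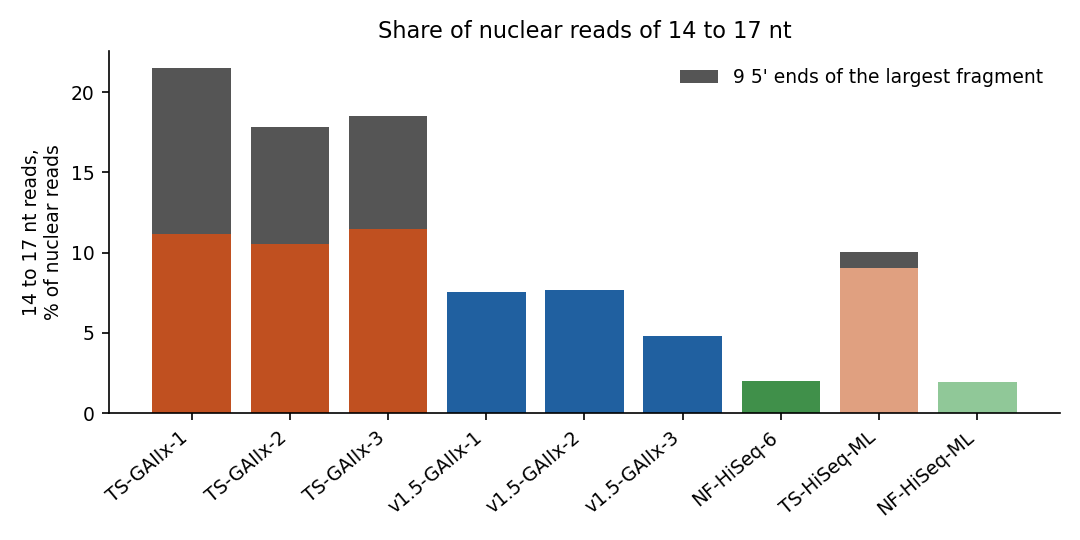
Share of nuclear reads of 14 to 17 nt in percent, 1 bar per library, coloured by kit and source (TruSeq orange, v1.5 blue, NEXTflex green, liver in pale tones). The dark part of a bar is the set of 9 5′ ends of the largest fragment and its other lengths, at 0 in v1.5 and NEXTflex. The 3 TruSeq MIN6 bars stand above all others, between 17.9% and 21.5%.

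A large part of this excess lay at 9 5′ ends on chromosomes 6, 7, 8 and 11, which held 4 distinct reads and 25.8% of all members' counts. They were picked as the exact reads that share a 3′ end with the largest member, at all places of those reads, and they are not the only members at 0 outside TruSeq. They made up 48.0%, 41.1% and 37.9% of the short reads of the TruSeq MIN6 libraries and 10.0% of those of TS-HiSeq-ML, and were at 0 in all v1.5 and NEXTflex libraries. The largest, chr11:54148594 (minus strand), had 49264, 33988 and 28850 RPMM in the TruSeq MIN6 libraries and 5844 in TS-HiSeq-ML. Against the level that 3 counts over the 3 v1.5 libraries would give, it was at least 435045-fold higher in TruSeq. Where these reads come from was not tested. Without them the short share was 12.1% ± 0.624 in TruSeq and 6.68% ± 1.61 in v1.5 (SD, n = 3), and the groups again did not overlap (exact permutation test, p = 0.1). In TS-HiSeq-ML it was then 9.12%.

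Reads that began elsewhere than on a listed miRNA were short far more often than those on listed miRNAs. Elsewhere, 62.5% ± 2.53 (SD, n = 3) of the nuclear reads were 14 to 17 nt in TruSeq and 27.7% ± 4.66 in v1.5 MIN6 libraries. On listed miRNAs, the share was 0.217%, 0.201% and 0.209% in TruSeq and 0.146%, 0.120% and 0.0756% in v1.5. The 2 groups did not overlap on either measure (exact permutation tests, p = 0.1 each). It was 0.0222% in NF-HiSeq-6, 0.126% in TS-HiSeq-ML and 0.0576% in NF-HiSeq-ML, so the order of the kits was the same as for all short reads. The share of the short reads that lay on listed miRNAs was 0.757% ± 0.0686 in TruSeq and 1.29% ± 0.135 in v1.5 (exact permutation test, p = 0.1). This difference rested on these 9 5′ ends: without them it was 1.31% ± 0.0337 against 1.29% ± 0.135, and the groups overlapped (exact permutation test, p = 0.8). The single libraries had 0.942% (95% Wilson interval 0.916% to 0.969%) in NF-HiSeq-6, 0.598% (0.586% to 0.609%) in TS-HiSeq-ML and 2.49% (2.44% to 2.55%) in NF-HiSeq-ML.

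The short reads on miRNAs were of 2 kinds, a division made after the data had been seen. Start fragments began within 1 nt of the mature 5′ end or before it and so lacked the 3′ end of the miRNA, whereas end fragments began at least 2 nt inside and most ran to its 3′ end. Of the 218 members, 96 were start and 122 end fragments. Over all 14 to 17 nt reads on listed miRNAs, start fragments had 1020, 1031 and 1047 RPMM in the TruSeq MIN6 libraries and 409, 376 and 256 in v1.5. The groups did not overlap (1033 ± 13.2 against 347 ± 80.7, SD, n = 3; exact permutation test, p = 0.1). End fragments had 492, 441 and 475 RPMM in TruSeq and 722, 564 and 359 in v1.5, and here the groups overlapped (469 ± 25.5 against 548 ± 182; exact permutation test, p = 0.6). End fragments made up 31.2% ± 1.26 of the short miRNA reads in TruSeq and 60.7% ± 2.80 in v1.5, again without overlap (exact permutation test, p = 0.1). In the single libraries they made up 28.1% (95% Wilson interval 26.9% to 29.4%) in NF-HiSeq-6, 27.4% (26.5% to 28.2%) in TS-HiSeq-ML and 14.6% (13.7% to 15.4%) in NF-HiSeq-ML.

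**Figure D2:**
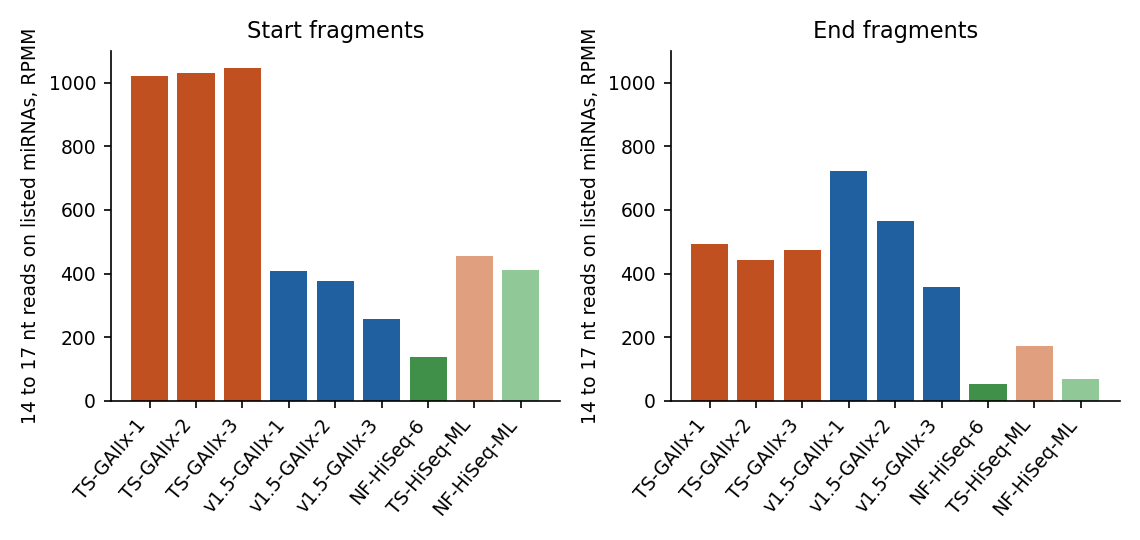
Reads of 14 to 17 nt on listed miRNAs in RPMM, 1 bar per library, for start fragments (left) and end fragments (right), with TruSeq in orange, v1.5 in blue, NEXTflex in green and liver in pale tones. Start fragments are at 1020 to 1047 RPMM in TruSeq MIN6 and at 256 to 409 in v1.5, while end fragments overlap between the kits.

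For each member, the level in the 3 v1.5 libraries was compared with that in the 3 TruSeq MIN6 libraries by edgeR's quasi-likelihood test, fitted over all 25147 nuclear 5′ ends with at least 10 short counts, with Benjamini-Hochberg adjustment. Of these 5′ ends 54.5% were called at an adjusted p under 0.05, with 25% higher and 29.5% lower in v1.5. Among the 204 members on miRNAs that could be tested, 74 were higher in v1.5, 69 lower and 61 not called, and the other 14 had too few counts. Of the 143 called, 142 had libraries that did not overlap between the kits, as had 54.1% of all 5′ ends tested. The median log2 fold change of the 204 was 0.23 (v1.5 over TruSeq), against -0.08 over all 5′ ends tested. The member rule itself uses a total that includes these 6 libraries, so that a 5′ end with few counts in one kit entered only through the other, and the counts are descriptions. Scaling by edgeR's TMM or by DESeq2's size factors moved the median of all 5′ ends to 0.29 and 0.40, and the members on miRNAs were then split 86 higher and 63 lower, and 90 higher and 62 lower. Of the 91 tested start fragments 26 were higher and 35 lower, with a median log2 fold change of -0.43. With DESeq2's size factors 34 were higher and 29 lower (median 0.07), and with TMM 31 and 30 (median -0.05), so their balance depends on the scaling. Of the 113 tested end fragments 48 were higher and 34 lower, with a median of 0.50, which stayed above 0 under each of these scalings (0.86 with TMM and 0.99 with DESeq2's size factors).

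The 10 start fragments with the highest mean level in the TruSeq MIN6 libraries included those of miR-30d-5p and miR-375-3p. The other 8 are shown at the length with the most TruSeq reads, with the fragment in capitals and the rest of the mature strand in lower case. The first lower case bases are those that follow the last base of the trimmed read, here called the break. Whether the RNA itself ended there was not tested. The fragments are in order of level, and let-7a-5p and let-7c-5p share 1 fragment.
miR-127-3p: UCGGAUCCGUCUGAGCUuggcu
let-7b-5p: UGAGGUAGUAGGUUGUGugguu
let-7a-5p: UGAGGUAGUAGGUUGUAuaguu
let-7c-5p: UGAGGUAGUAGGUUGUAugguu
miR-30a-5p: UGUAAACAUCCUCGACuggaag
miR-30e-5p: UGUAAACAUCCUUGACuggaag
let-7f-5p: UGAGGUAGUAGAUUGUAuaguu
miR-186-5p: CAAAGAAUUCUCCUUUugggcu
miR-429-3p: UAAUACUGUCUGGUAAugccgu

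The member with the largest total on a miRNA was the 5′ end of miR-127-3p, a miRNA of the imprinted Dlk1-Dio3 region, at chr12:110831098 (plus strand). It had 252, 250 and 252 RPMM of short reads in TruSeq MIN6 and 56.2, 41.5 and 24.6 in v1.5, 0 in both NEXTflex libraries and 1.64 in TS-HiSeq-ML. The kits did not overlap (log2 fold change -2.62 ± 0.32 SE, edgeR adjusted p = 0.00161). The share of short reads at this 5′ end did not pass the test (log2 -0.22 ± 0.34, adjusted p = 0.661), but the lengths differed. Reads of 17 nt, the fragment above, had 232, 232 and 235 RPMM in TruSeq and 0.238, 0.335 and 0.481 in v1.5. Reads of 16 nt had 19.87, 17.96 and 17.69 RPMM in TruSeq and 55.3, 40.4 and 23.6 in v1.5, with no overlap in the opposite direction.

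miR-30d-5p and miR-30a-5p, which share their seed, had the sharpest differences among the most abundant start fragments. miR-30d-5p, at chr15:68172840 (minus strand), had 112, 129 and 136 RPMM in TruSeq, 1.52, 1.04 and 0.780 in v1.5, 93.6 in TS-HiSeq-ML and 0 in both NEXTflex libraries (log2 fold change -6.82 ± 0.32, edgeR adjusted p = 0.000215). Almost all of the TruSeq reads were 16 nt long, at 112, 129 and 135 RPMM. miR-30a-5p, at chr1:23279113 (plus strand), had 44.1, 38.3 and 46.4 RPMM in TruSeq, 0.317, 0.352 and 0.501 in v1.5, 123 in TS-HiSeq-ML and 0 in both NEXTflex libraries (log2 fold change -6.79 ± 0.26, adjusted p = 0.000178). The share of short reads was also lower in v1.5, by log2 -6.56 ± 0.25 for miR-30d-5p (adjusted p = 1.71e-06) and -6.04 ± 0.25 for miR-30a-5p (adjusted p = 2e-06). miR-30e-5p, at chr4:120445286 (minus strand), chosen after its values had been seen, had 19.1, 21.1 and 21.3 RPMM in TruSeq and 0.595, 0.901 and 0.481 in v1.5 (log2 fold change -4.88 ± 0.29, adjusted p = 0.000298). In all 3 miRNAs every TruSeq library, the liver one included, stood above every v1.5 and NEXTflex library. A count of 0 allows up to 0.117 RPMM in NF-HiSeq-6 and 0.209 in NF-HiSeq-ML.

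let-7, a large family of miRNAs that rises during differentiation, showed the same direction at let-7b and at the fragment shared by let-7a and let-7c, but not throughout. let-7b-5p, at chr15:85537755 (plus strand), had 102, 99.7 and 108 RPMM in TruSeq, 7.96, 8.40 and 5.02 in v1.5, 1.75 in NF-HiSeq-6, 6.90 in TS-HiSeq-ML and 23.6 in NF-HiSeq-ML (log2 fold change -3.86 ± 0.25, edgeR adjusted p = 0.000326). let-7a and let-7c are identical over their first 17 bases, so that their reads were divided among 4 places. Each of these, let-7a-1 at chr13:48633629 (minus strand) among them, had 55.5, 57.4 and 58.7 RPMM in TruSeq, 6.69, 5.95 and 4.35 in v1.5, 10.1 in NF-HiSeq-6, 8.14 in TS-HiSeq-ML and 20.8 in NF-HiSeq-ML (log2 fold change -3.34 ± 0.22, adjusted p = 0.000326). Reads of 17 nt made up nearly all of the TruSeq level of let-7b, with 102, 99.2 and 107 RPMM against 4.32, 5.07 and 2.89 in v1.5. The share of short reads at let-7b was lower in v1.5 by log2 -5.19 ± 0.24 (adjusted p = 2.96e-06). With only 14 to 16 nt counted as short it turned to log2 1.48 (adjusted p = 0.010), since this leaves out the 17 nt fragment. The let-7f start fragment, 1 of 4 places, had a mean of 16.8 RPMM in TruSeq and 11.1 in v1.5 and was not called (adjusted p = 0.104), and that of let-7g was higher in v1.5, at 7.29 against 3.04 (log2 fold change 1.27, adjusted p = 0.0160). At let-7b and let-7a the liver TruSeq library was below the NEXTflex library, unlike in MIN6.

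miR-375-3p, which restrains insulin secretion in the beta cell, went the other way. Its start fragments, at chr1:74947256 (minus strand), had 15.9, 13.6 and 11.2 RPMM in TruSeq and 47.2, 49.0 and 33.4 in v1.5, and 0 in the 3 other libraries (log2 fold change 1.67 ± 0.23, edgeR adjusted p = 0.00248). All v1.5 libraries were above all TruSeq libraries, although the TruSeq libraries held more miR-375-3p of any length. The share of short reads was higher in v1.5 by log2 2.79 ± 0.28 (adjusted p = 0.000125). Reads of 16 nt had 22.8, 25.9 and 20.6 RPMM in v1.5 and 1.73, 1.02 and 1.38 in TruSeq, whereas reads of 17 nt overlapped at 8.53, 8.63 and 7.30 against 7.37, 7.30 and 5.65.

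**Figure D3:**
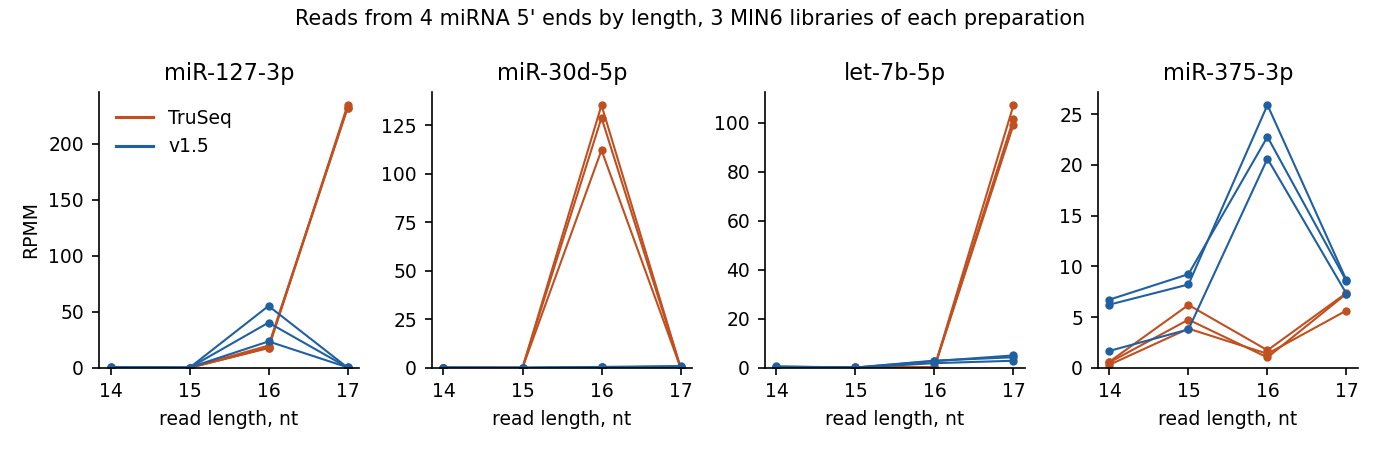
Short reads at the 5′ ends of miR-127-3p, miR-30d-5p, let-7b-5p and miR-375-3p in RPMM against read length in nt, 1 line per MIN6 library (TruSeq orange, v1.5 blue), each panel with its own axis. In TruSeq 1 length holds nearly all reads of the first 3, at 232 to 235, 112 to 135 and 99.2 to 107 RPMM, and in v1.5 16 nt is the peak of miR-375-3p at 20.6 to 25.9 RPMM.

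Over all start fragments, reads of 17 nt made up 71.4% ± 0.367 in TruSeq and 47.1% ± 4.51 in v1.5 (SD, n = 3), and reads of 14 nt 0.571% ± 0.0995 against 6.55% ± 2.29. The lengths of 15 and 16 nt made up 1.71% ± 0.243 and 26.3% ± 0.700 in TruSeq against 8.38% ± 0.963 and 37.9% ± 1.34 in v1.5. None of the 4 lengths overlapped between the kits (exact permutation tests, p = 0.1 each). In end fragments the order was reversed: 17 nt made up 43.2% ± 1.35 in TruSeq and 58.1% ± 3.79 in v1.5 (exact permutation test, p = 0.1), and only the share of 15 nt overlapped (15.1% ± 0.255 against 15.7% ± 2.90, p = 0.8).

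In 5 of the 8 fragments shown above, those of miR-127-3p, let-7b-5p, miR-30a-5p, miR-30e-5p and miR-186-5p, the bases that follow the break are UGG. They are UAG in let-7f-5p and UGC in miR-429-3p, and in the fragment shared by let-7a-5p and let-7c-5p they are UAG or UGG. This was seen in the data and then counted over all start fragments, so the counts are a description and no test is given. Of the 14 to 17 nt reads that began at the 5′ end of a listed miRNA with a RefSeq sequence, 62.8%, 62.6% and 64.4% ended just before UGG in the TruSeq MIN6 libraries and 3.55%, 4.13% and 4.41% in v1.5. The share was 61.6% in TS-HiSeq-ML, 16.6% in NF-HiSeq-6 and 29.2% in NF-HiSeq-ML. For comparison, the 222 mature sequences have 886 possible breaks after base 14 to 17, of which 28 (3.16%) are followed by UGG on the strand of the miRNA.

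These shares rest in part on the equal division of reads that are identical in strands with different following bases, such as let-7a and let-7c. Such reads made up 28.2% to 29.2% of the start-fragment reads in TruSeq MIN6, 18.3% to 19.5% in v1.5, 44.3% in NF-HiSeq-6, 14.8% in TS-HiSeq-ML and 42.3% in NF-HiSeq-ML. Without them the share was 69.4%, 69.4% and 71.8% in TruSeq MIN6, 1.92%, 2.70% and 2.51% in v1.5, 65.2% in TS-HiSeq-ML, 29.9% in NF-HiSeq-ML and 1.23% in NF-HiSeq-6, so that the level in NF-HiSeq-6 came almost wholly from the divided reads. The shares also rest on few miRNAs. By miRNA, the 3 TruSeq MIN6 libraries together held 5959 such reads of miR-127-3p against 12 in v1.5, 2916 against 185 assigned to let-7c-5p, 2645 against 145 of let-7b-5p, 1099 against 1 of miR-30a-5p, 525 against 2 of miR-30e-5p, 403 against 1 of miR-16-5p and 213 against 0.625 of miR-186-5p. Without the let-7 and miR-30 families, miR-127, miR-186 and miR-429, the share was 13.9%, 14.5% and 17.1% in TruSeq MIN6, 0.204%, 0.367% and 0.237% in v1.5, 0 in NF-HiSeq-6 (of 1494 reads, which allows up to 0.201%), 18.6% in TS-HiSeq-ML and 27.9% in NF-HiSeq-ML. Without miR-16-5p as well it was 4.93%, 4.10% and 5.01% in TruSeq MIN6, 0.205%, 0.312% and 0.238% in v1.5 and 1.61% in TS-HiSeq-ML. In NF-HiSeq-ML it was then also 0, which allows up to 0.378%. Most of the TruSeq share thus came from these miRNAs, and the rest was still above v1.5 in every TruSeq MIN6 library. The 3.16% of all breaks counts each break once and includes those of the miRNAs left out, so this rest is not measured against it. No cause was tested.

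**Figure D4:**
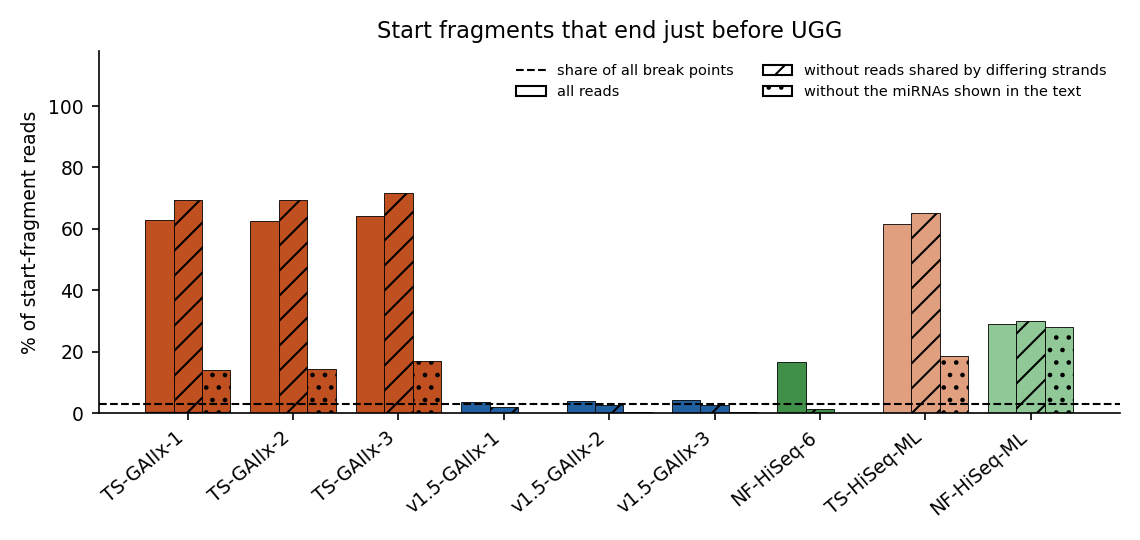
Percent of start-fragment reads that end just before UGG in the mature miRNA, 3 bars per library: all reads (plain), without reads identical in strands with different following bases (hatched), and without the let-7 and miR-30 families, miR-127, miR-186 and miR-429 (dotted), with TruSeq in orange, v1.5 in blue, NEXTflex in green and liver in pale tones. The dashed line is the 3.16% of all possible breaks that are followed by UGG. The plain bars of TruSeq MIN6 are at 62.6% to 64.4% and the dotted ones at 13.9% to 17.1%, while the plain bars of v1.5 are at 3.55% to 4.41%.

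Of the end fragments with the largest totals, those of 7 miRNAs are shown next, with the part of the fragment that lies in the mature strand in capitals. The reads of miR-7a-5p and miR-183-5p ran 1 base past the mature 3′ end, which is not shown. That of miR-122-5p, with a total between those of let-7c-5p and miR-29a-3p, is described with the liver libraries and is not shown. The first 3 were higher in v1.5, let-7c-5p was not called, and the last 3 were lower in v1.5.
miR-379-5p: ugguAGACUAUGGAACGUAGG
miR-7a-5p: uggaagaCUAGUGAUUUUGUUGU
miR-16-5p: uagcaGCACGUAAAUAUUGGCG
let-7c-5p: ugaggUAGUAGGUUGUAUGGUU
miR-27b-3p: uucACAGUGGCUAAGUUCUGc
miR-183-5p: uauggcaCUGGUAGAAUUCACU
miR-29a-3p: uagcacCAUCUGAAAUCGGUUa

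The end fragment of miR-379-5p, another miRNA of the Dlk1-Dio3 region, at chr12:110947279 (plus strand), had 0.0752, 0 and 0.0415 RPMM in TruSeq and 61.2, 49.9 and 31.8 in v1.5, and 0 in the 3 other libraries (edgeR adjusted p = 0.000849). The same read also matches chr15:71799439 (plus strand), which lies on no listed miRNA and received equal counts. Summed over its places the read was counted 2 times in the TruSeq libraries and 2703 times in v1.5, a ratio of 988 per mapped read with a 95% exact interval of 273 to 8162 for counting error only. The end fragment of miR-7a-5p, a beta cell miRNA that lowers insulin secretion, at chr13:58494217 (minus strand), had 1.27, 1.23 and 1.46 RPMM in TruSeq and 44.0, 37.7 and 27.8 in v1.5 (log2 fold change 4.80 ± 0.27, adjusted p = 0.000262). NF-HiSeq-6 had 0.862 RPMM and both liver libraries 0. In both miRNAs every v1.5 library was far above every TruSeq library.

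Other end fragments were high in TruSeq. That of miR-27b-3p at chr13:63402071 (plus strand), divided among 3 places, had 66.8, 51.5 and 46.7 RPMM in TruSeq, 0.621, 0.397 and 0.232 in v1.5, 0 in both NEXTflex libraries and 0.689 in TS-HiSeq-ML (log2 fold change -6.99 ± 0.45, edgeR adjusted p = 0.000326). That of miR-183-5p, of the miR-183/96/182 cluster, at chr6:30119725 (minus strand), had 35.1, 28.5 and 32.6 RPMM in TruSeq and 0.667, 0.355 and 0.151 in v1.5 (log2 fold change -6.30 ± 0.43, adjusted p = 0.000370). That of miR-29a-3p at chr6:31012688 (minus strand) had 18.3, 22.8 and 25.7 RPMM in TruSeq and 0.661, 0.452 and 0.0963 in v1.5 (log2 fold change -5.79 ± 0.57, adjusted p = 0.000877). Neither kit overlapped the other at any of the 3. The miR-183 and miR-29a fragments, and the further members named in the next paragraph, lay outside the naming rule and were chosen after their values had been seen.

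The 2 ends of a miRNA did not always move together. In 33 miRNAs both a start and an end fragment could be tested, and in 10 of them the called start and end fragments went in opposite directions, in 8 in the same direction. Of the 10, the start was lower and the end higher in v1.5 for let-7a, let-7b, let-7c, miR-101b and miR-30e, and the reverse held for miR-141, miR-148a, miR-29a, miR-33 and miR-5099. miR-16-5p, whose reads were divided between copies on chromosomes 14 and 3, was not among the 10, since its called end fragments went both ways. Its start fragment at chr14:62250794 (minus strand) had 6.55, 7.59 and 8.80 RPMM in TruSeq and 0.297, 0.209 and 0.0963 in v1.5 (log2 fold change -5.19 ± 0.41, edgeR adjusted p = 0.000525). Its most abundant end fragment, at chr14:62250789, had 0.602, 0.292 and 0.540 RPMM in TruSeq and 26.9, 18.4 and 13.9 in v1.5 (log2 fold change 5.37 ± 0.40, adjusted p = 0.000466). miR-29a-3p had a start fragment at chr6:31012694 (minus strand) of 1.35, 1.11 and 0.747 RPMM in TruSeq and 13.5, 9.28 and 8.47 in v1.5 (log2 fold change 3.27 ± 0.33, adjusted p = 0.000990), against the end fragment above that was higher in TruSeq. The groups did not overlap at any of these 5′ ends. Fragments of a start and an end can overlap in sequence and are not the 2 pieces of 1 cut.

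By family, let-7 and miR-98 had 47 members, of which 15 were higher in v1.5 and 12 lower, or 57.4% called against 54.5% of all 5′ ends. The split became 22 higher and 6 lower with TMM, with DESeq2's size factors and with the DESeq2 test. Over the family, 0.723%, 0.720% and 0.738% of the reads were short in TruSeq and 0.130%, 0.104% and 0.0597% in v1.5. End fragments made up 18.4%, 17.5% and 18.6% of its short reads in TruSeq and 73.4%, 71.0% and 67.0% in v1.5. Of the 14 members of miR-30 12 were tested, with 2 higher and 3 lower and a median log2 fold change of -0.32, which turned to 0.05 with TMM and 0.17 with DESeq2's size factors, where 5 were higher and 3 lower. Its end fragments made up 9.07%, 5.57% and 6.75% of the short reads in TruSeq and 71.6%, 71.8% and 66.5% in v1.5. miR-29, known for its action on collagen genes, stood apart: end fragments made up 97.0%, 97.4% and 98.5% in TruSeq and 39.2%, 42.2% and 28.1% in v1.5. Of its 9 members 1 was higher and 6 lower, with a median of -2.95 (2 and 6 with DESeq2's size factors). In no library pair did these shares overlap between the kits. Of the 8 members of miR-200, miR-141 and miR-429, epithelial miRNAs, 4 were higher and 3 lower (median 1.35). Of the 5 tested members of the miR-17/92 and miR-106b/25 clusters, which favour proliferation, 4 were higher and 0 lower (median 3.08). These members all lay on miR-106b, miR-93 and miR-25 of the miR-106b/25 cluster, and none on miR-17/92. The directions of the let-7, miR-29, miR-200 and miR-106b/25 medians were the same under TMM and DESeq2's size factors.

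The share of short reads at a 5′ end was tested in 1 model over short and long reads, where long reads are those of 18 nt or more, which the rule did not use. Of 7855 5′ ends with enough of both, 40.9% were called, 11.2% with more and 29.7% with fewer short reads in v1.5 (edgeR, adjusted p under 0.05). Of the 4180 members among them, 584 had more and 1596 fewer, and of the 139 on miRNAs, 18 and 49. The median log2 difference was -0.99 over the members and -0.82 over all 7855. On miRNAs, 91 start fragments were tested, 13 with more and 43 with fewer. Of the 113 end fragments tested for level, only 48 could be tested here, 5 with more and 6 with fewer. A read of 18 nt or more from such a 5′ end often has to run past the mature 3′ end. Start and end fragments are therefore not compared on equal terms in this test. In let-7 1 of 25 had more and 15 fewer.

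Elsewhere than on miRNAs, 2744 of 9823 tested members were higher in v1.5 and 3768 lower, with a median log2 fold change of -0.34. With TMM the split was 3392 and 3431, and with DESeq2's size factors 3563 and 3243, so the balance of directions depends on the scaling. In the sum over all members, 6655 of 10027 were called (2818 higher, 3837 lower), 6586 of them with libraries that did not overlap between the kits. Over all 25147 5′ ends, 54.5% were called and 54.1% called without overlap. Members were chosen on their totals, so nothing is read from their higher share. The other 1783 members had too few counts in these 6 libraries. At 0 in all 3 TruSeq MIN6 libraries and above the level of 3 counts in v1.5 were 498 members, and 447 the reverse. Such members passed the rule only through the libraries where they were counted. The share over all 5′ ends was not computed, so nothing is read from these 2 counts. Reads with a mismatch, which were divided among up to 10 places that differed between libraries, can put such a 0 at 1 place and counts at another. When reads were therefore summed over all their places, 53% of 15548 reads were called, 25.8% higher and 27.2% lower in v1.5 (edgeR, adjusted p under 0.05), and of the 4031 with at least 50 counts, 1145 were higher and 1473 lower. This step was added after the data had been seen.

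**Figure D5:**
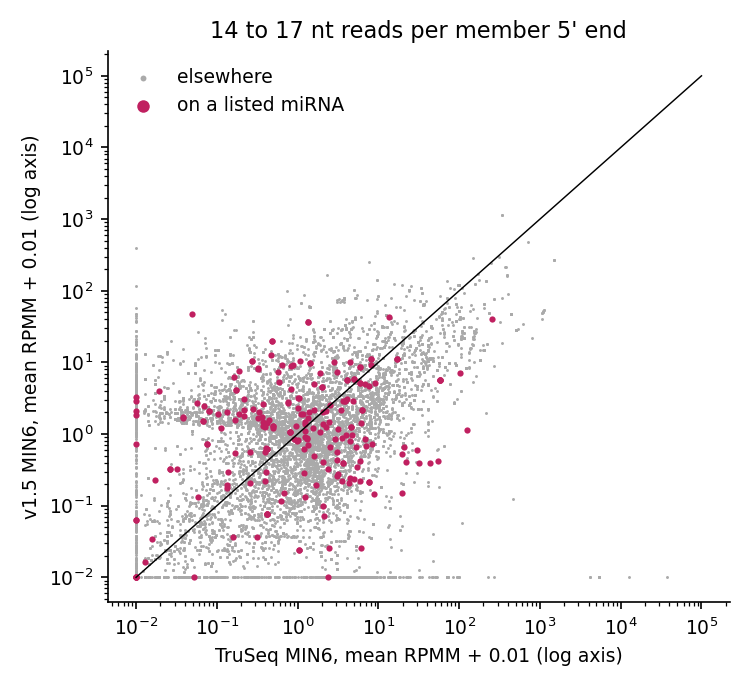
Mean RPMM of short reads in the 3 v1.5 MIN6 libraries against that in the 3 TruSeq MIN6 libraries, both axes logarithmic after adding 0.01, 1 point per member 5′ end (grey, elsewhere; magenta, on a listed miRNA) with the line of equal values. Points along the lower and left edges were at 0 in one kit, and the points at the far right of the lower edge are 5′ ends of the largest fragment and its other lengths.

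For 4 members elsewhere with exact reads the fragments are shown, as read back from the deposited edit strings. They are given in mm9 on the strand of the read, and the capitals in the first mark a CCA at its end. The fragment of chr6:87947239 is its first 15 bases, and the last 2 are shown for their difference in short share.
chr11:97631140-97631156 (minus strand): tccgggtgccccctCCA
chr6:87947225-87947239 (minus strand): cgacacaagggtttg
chr17:39984725-39984738 (plus strand): agcggtcggcgtcc
chr17:59208145-59208161 (plus strand): gtggttatcacgttcgc

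The 5′ end chr11:97631156 had 743, 715 and 687 RPMM in TruSeq, 451, 529 and 463 in v1.5, 13.0 in NF-HiSeq-6, 27.4 in TS-HiSeq-ML and 0 in NF-HiSeq-ML (log2 fold change -0.57 ± 0.12, edgeR adjusted p = 0.00919). All TruSeq MIN6 libraries stood above all v1.5 libraries in RPMM, but the difference depends on it: with TMM it was -0.16 (adjusted p = 0.390) and with DESeq2's size factors -0.0064 (adjusted p = 0.986). Both liver libraries were far below. chr6:87947239 (minus strand), 1 of 3 places of its read, had 376, 386 and 407 RPMM in TruSeq, 178, 191 and 127 in v1.5, 6.37 in NF-HiSeq-6, 2315 in TS-HiSeq-ML and 141 in NF-HiSeq-ML (log2 fold change -1.24 ± 0.18, adjusted p = 0.00304). It was thus higher in liver than in MIN6 within TruSeq and within NEXTflex. chr10:23386147 (plus strand), 1 of 2 places, had 347, 338 and 336 RPMM in TruSeq, 1016, 1239 and 1124 in v1.5, 42.4 in NF-HiSeq-6, 16.6 in TS-HiSeq-ML and 6.93 in NF-HiSeq-ML (log2 fold change 1.73 ± 0.12, adjusted p = 0.000409). This is the opposite order of the kits to that of the first 2, again without overlap. Without a filter on low counts none of these 3 calls held (adjusted p = 0.474, 0.140 and 0.123, in this order). chr19:31161459 (plus strand) had 310, 293 and 327 RPMM in TruSeq and 294, 328 and 254 in v1.5, and the kits overlapped (log2 fold change -0.08 ± 0.14, adjusted p = 0.630). With TMM and with DESeq2's size factors it was 0.31 and 0.46, called at adjusted p of 0.0434 and 0.0467.

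The fragment at chr17:39984725 (plus strand) had 206, 212 and 227 RPMM in TruSeq, 2.66, 2.26 and 0.963 in v1.5, 16.2 in NF-HiSeq-6, 524 in TS-HiSeq-ML and 154 in NF-HiSeq-ML (log2 fold change -6.75 ± 0.44, edgeR adjusted p = 0.000339). The v1.5 libraries were the lowest of the 9. Its share of short reads was 99.8%, 99.6% and 99.9% in TruSeq and 50.4%, 47.4% and 34.5% in v1.5 (log2 -9.15 ± 0.50, adjusted p = 7.28e-06). The fragment at chr17:59208145 (plus strand), 1 of 9 places, went the other way, with 0.227, 0.242 and 0.273 RPMM in TruSeq and 13.8, 15.1 and 12.7 in v1.5 (log2 fold change 5.58 ± 0.23, adjusted p = 0.000178). Its short share was 2.84%, 3.62% and 3.78% in TruSeq and 78.4%, 79.2% and 76.8% in v1.5 (log2 6.46 ± 0.25, adjusted p = 1.71e-06). The largest difference in short share among members with fewer short reads in v1.5 was at chr13:23492734 (minus strand), where 98.5%, 98.6% and 99.6% were short in TruSeq and 12.6%, 11.2% and 7.96% in v1.5 (log2 -11.85 ± 0.59, adjusted p = 3.68e-05). Its level of short reads was nevertheless higher in v1.5, with 52.6, 48.6 and 24.7 RPMM against 4.70, 4.86 and 5.95, so it was the long reads that differed more. The 5′ ends ranked first and second for more short reads in v1.5, chr8:5069275 and chr7:17057263, had short reads in v1.5-GAIIx-1 only of the 6 libraries. Summed over its places, the read of the former was lower in v1.5 (log2 fold change -2.81 ± 0.20, adjusted p = 0.000501).

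Among the members counted in v1.5 and at 0 in all TruSeq MIN6 libraries, chr6:102983956 (minus strand) had 421, 580 and 169 RPMM in v1.5, at least 3320-fold above the level of 3 counts over the TruSeq libraries. chr4:39893733 (plus strand) had 175, 120 and 55.6 RPMM and was at least 995-fold higher. At the next base, chr4:39893734, reads with the same 3′ end had 445, 0 and 0 RPMM in TruSeq and 337, 387 and 145 in v1.5 (log2 fold change 0.97 ± 2.46, edgeR adjusted p = 0.753), so that 1 TruSeq library did hold reads of this place. Both 5′ ends at 0 rested on reads with a mismatch at 1 place and were at 0 in the 3 other libraries. In the reverse direction chr7:76152284 (minus strand), an exact read at 1 place, had 254, 192 and 241 RPMM in TruSeq, 3.27 in TS-HiSeq-ML and 0 in v1.5 and NEXTflex, at least 2663-fold higher than v1.5. For chr8:108872256 and chr16:84263789, which were also at 0 in TruSeq, the same reads lay at other places there. Summed over places they had log2 fold changes of -0.65 ± 1.01 (adjusted p = 0.583) and 0.45 ± 0.13 (adjusted p = 0.0264), so the first lost its call and the second most of its size.

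The bases that the edit strings report were then set against the small RNA transcripts of the reference annotation, a step added after the values had been seen. Of 1746 reads that could be compared 429 matched, with at most 0.01 chance matches expected per read. Besides 227 on miRNAs, 98 were on snoRNAs, which guide the modification of rRNA, 27 on snRNAs of the spliceosome, 19 on rRNA, 19 on mitochondrial tRNA and 17 on mitochondrial rRNA. The last 2 match mitochondrial RNA, whose sequence some nuclear places share, and 161 members had reads that were also placed on the mitochondrial chromosome. The RPMM of matching reads, here and in the next paragraph, sum all places of a read, those on the mitochondrial chromosome included. Calls and fold changes use the nuclear places only, so for mitochondrial RNA they do not cover the same counts as the levels. Reads matching rRNA had 238, 226 and 234 RPMM in TruSeq, 49.0, 57.1 and 28.0 in v1.5, 94.8 in NF-HiSeq-6, 279 in TS-HiSeq-ML and 96.6 in NF-HiSeq-ML, and of the 11 tested 0 were higher and 4 lower in v1.5, against 25.8% higher and 27.2% lower of all summed reads. Of the 93 tested on snoRNAs 39 were higher and 21 lower, and their summed level overlapped between the kits, with 554, 542 and 577 RPMM in TruSeq and 792, 745 and 456 in v1.5. Of the 15 tested on mitochondrial tRNA 5 were higher and 7 lower, but the summed level of all such reads was higher in each v1.5 library, with 57.1, 51.5 and 52.6 RPMM in TruSeq and 272, 210 and 140 in v1.5. Of the 9 tested on mitochondrial rRNA 5 were higher and 1 lower, with summed levels of 183, 165 and 159 RPMM in TruSeq and 419, 457 and 289 in v1.5, again without overlap. The fragments named next are these, the first 2 from snoRNAs (Snord99, Snord33), the next from rRNA of the 5S type and the last from the mitochondrial 16S rRNA.
Snord99: cggatatgggactgaga
Snord33: actaccatctgagg
5S-type rRNA: accgggtgctgtaggct
mt-Rnr2: actaatcctagccctag

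The Snord99 fragment, at chr4:131866657-131866673 (plus strand), had 22.7, 26.7 and 26.8 RPMM in TruSeq, 3.01, 2.01 and 1.54 in v1.5, 101 in TS-HiSeq-ML and 0 in both NEXTflex libraries (log2 fold change -3.53 ± 0.30, edgeR adjusted p = 0.000868). The Snord33 fragment went the other way, with 3.31, 2.63 and 3.32 RPMM in TruSeq and 49.98, 37.8 and 13.9 in v1.5 over its 10 places (log2 fold change 3.45 ± 0.51, adjusted p = 0.00567). The 5S-type fragment, whose 17 places match 60 annotated gene copies, had 33.6, 38.1 and 40.6 RPMM in TruSeq and 5.55, 6.03 and 4.43 in v1.5 (log2 fold change -2.81 ± 0.20, adjusted p = 0.000501). It had 14.3 RPMM in NF-HiSeq-6, 135 in TS-HiSeq-ML and 55.2 in NF-HiSeq-ML. The mt-Rnr2 fragment, which begins at the first base of that rRNA, had 0.452, 0.438 and 0.415 RPMM in TruSeq and 3.81, 4.27 and 1.83 in v1.5 when 17 nt long (log2 fold change 2.71 ± 0.58, adjusted p = 0.0131). A 15 nt read from the same first base had 5.27, 4.24 and 3.41 RPMM in TruSeq and 0.873, 1.42 and 0.578 in v1.5 (log2 fold change -2.15 ± 0.46, adjusted p = 0.0133), so that the 2 lengths of 1 start moved in opposite directions. Kits did not overlap at any of these fragments.

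Cells and tissue were compared within a kit with 1 RPMM added, on single libraries and without a test. Platform and RNA extraction differed between the MIN6 and liver libraries of TruSeq along with the source, so these cannot be told apart. The study does not name the sequencing facility of the liver libraries. Within TruSeq, 0.79% of 18227 5′ ends were at least 10-fold higher in liver and 4.04% at least 10-fold lower, while 144 of 8629 members were higher and 737 lower. The members on miRNAs were 3 higher and 9 lower of 174. Within NEXTflex, 1.64% of 11349 5′ ends were at least 10-fold higher in liver and 0.978% lower, with 186 and 111 of 5159 members, and 9 and 1 of 66 on miRNAs. Every 5′ end past this fold was a member, so the member counts are those of all 5′ ends and say nothing particular to the members. NEXTflex over TruSeq in MIN6 was at least 10-fold higher at 0.475% of 19154 5′ ends and lower at 5.03%, with 91 and 964 of 9170 members. In liver it was higher at 1.54% of 10103 and lower at 4.12%, with 156 and 416 of 5077 members. Fewer reads of a kind and less RNA per cell cannot be told apart in such bulk libraries.

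The miRNA members with the highest level of short reads in TS-HiSeq-ML were the start fragments of miR-30a-5p (123 RPMM) and miR-30d-5p (93.6), and in NF-HiSeq-ML those of miR-122-5p (117) and miR-5115 (40.4). Short reads at the 5′ end of miR-122-5p, at chr18:65408520 (plus strand), had 0 RPMM in the 6 Illumina MIN6 libraries, 0.0196 in NF-HiSeq-6, 2.94 in TS-HiSeq-ML and 117 in NF-HiSeq-ML. The difference between the liver libraries was one of level and not of share: 0.0170% and 0.0219% of the reads at this 5′ end were short. Its end fragment at chr18:65408524 had 1.96 and 40.3 RPMM in the liver libraries and 0 in all MIN6 libraries. miR-5115 at chr2:72850967 (minus strand) had 0.518 and 40.4 RPMM in liver and at most 0.456 in MIN6. At this 5′ end the liver TruSeq library was near MIN6 and the NEXTflex library far above. At 2 neighbouring members on miR-5115, chr2:72850969 and chr2:72850973, the order was the other way: TS-HiSeq-ML had 14.5 and 14.07 RPMM against means of 0.244 and 0.675 in TruSeq MIN6, and both NEXTflex libraries had 0.

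Elsewhere, many of the 5′ ends with the largest ratios of liver to MIN6 rested on where a divided read was placed. The highest and the lowest within TruSeq, chr15:12819058 and chr13:39525454, hold the same read with 19 places, which had 1659 RPMM at the first in TS-HiSeq-ML and 1385 at the second in TS-GAIIx-3. Summed over its places it had 10176, 8059 and 13845 RPMM in TruSeq MIN6 and 16571 in TS-HiSeq-ML, 654, 554 and 213 in v1.5, 23.8 in NF-HiSeq-6 and 127 in NF-HiSeq-ML. Other differences were at 1 place: chrX:132673833 (minus strand) had 219 RPMM in TS-HiSeq-ML and at most 3.35 in the other libraries, and chr6:34765845 (minus strand) had 48.7 and 14.01 in the liver libraries and 0 in MIN6. Higher in MIN6 within NEXTflex were chr11:97658458 (plus strand), with 78.0 RPMM in NF-HiSeq-6 against 0.0579 in NF-HiSeq-ML, and chr9:123438542 (minus strand), with 64.8 against 0. The latter was also high in the other MIN6 libraries, at 65.7, 69.2 and 64.7 RPMM in TruSeq and 53.0, 56.1 and 38.3 in v1.5, against 4.79 in TS-HiSeq-ML. The level in NF-HiSeq-6 thus lay within the range of the TruSeq MIN6 libraries, and both liver libraries lay below all MIN6 libraries. The 5′ ends chr9:68044624 and chr3:96012070 were counted in NF-HiSeq-6 only, at 50.6 and 42.2 RPMM.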

How the data were processed

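Small RNA was sequenced in 7 MIN6 libraries and 2 liver libraries. The authors trimmed the 3′ adapter of the Illumina kits with cutadapt, removed the degenerate end bases of NEXTflex reads, and mapped to mm9 with Bowtie, all per the labels or the study's methods. The deposited files hold expected counts per alignment. Exact reads were divided equally among up to 20 places, and reads with a mismatch or with only a number in the alignment column among up to 10. What such a number means is not given in the sources used here, but it equalled end minus start in all 563705 such lines, and that was taken as the length, while lines marked Exact end 1 base earlier.

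Here, alignments were summed by 5′ end, and RPMM was computed as counts per 1000000 of the study's mapped reads, from 6644520 to 25566100 per library. The reference annotation is of another build, so mm9 positions carry no gene annotation. v1.5 and TruSeq MIN6 libraries were compared with edgeR 4.0.16 (R 4.3.3), by its quasi-likelihood test with Benjamini-Hochberg adjustment, a threshold of 0.05, library sizes from the mapped reads and at least 10 counts over the 6 libraries. The share of short reads was tested as an interaction in 1 fit over counts of 14 to 17 nt and of 18 nt or more, with at least 10 of each. Shares per library were compared by two-sided exact permutation tests (SciPy 1.17.1). Single libraries were not tested. Intervals are Wilson intervals at 95%, and the level of 0 allows 3 counts; both cover counting error only. Scripts ran in Python 3.11.15 with numpy 2.4.6 and pandas 2.3.3 and were tested on simulated data.

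The 5′ ends named were the 10 with the largest total on listed miRNAs and the 10 elsewhere, the 5 with the largest change in each direction among called members whose libraries did not overlap, the 5 in each direction for the share of short reads with at least 50 long counts, and the 5 highest and lowest ratios of liver to MIN6 within each kit after adding 1 RPMM. Places of the same divided reads counted as 1. Others are said to be chosen after their values were seen. The members, lists and rules were chosen with earlier results of these data known. Alternatives were other scalings (TMM, DESeq2 1.42.0), filters, member limits, read lengths, kinds of alignment, a replicate block and leaving out each library.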

Additional observations from a re-analysis of the deposited data

Results flagged for a closer look

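The 7 named 5′ ends described here are among those at which NEXTflex stood on opposite sides of TruSeq in liver and in MIN6. They are not all of them. At chr13:23492734, for example, NF-HiSeq-ML had 0.626 RPMM against 0.0674 in TS-HiSeq-ML. NF-HiSeq-6 had 1.14 RPMM there against 4.70 to 5.95 in TruSeq MIN6. With 1 NEXTflex library per source, these differences were not tested. The start fragment of let-7b-5p, at chr15:85537755, had a log2 ratio of NEXTflex to TruSeq of 1.64 in liver and a mean of -5.24 in MIN6. For that of let-7a, at chr13:48633629, it was 1.25 in liver and -2.39 in MIN6, and the read summed over its 4 places had 30.9 RPMM in TS-HiSeq-ML and 51.1 in NF-HiSeq-ML against 217 to 232 in TruSeq MIN6 and 36.1 in NF-HiSeq-6.

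The other 5 lie elsewhere and rest on reads with a mismatch that were divided among places. For chr15:12819058 the log2 ratio was -10.70 in liver and 1.91 in MIN6, but its read summed over places was lower in NEXTflex in both. For chr13:52578760 it was 2.75 and -7.27, and the summed read, with 1567 RPMM in TS-HiSeq-ML and 52.6 in NF-HiSeq-ML, was lower in NEXTflex in both. For chr11:96972634 it was 3.76 and -6.83, with summed values of 38.6 and 26.4 RPMM in the liver libraries. For chr8:118555800 it was 1.38 and -7.10, with summed values of 3090 and 227 RPMM. For chr5:139299926 it was 2.45 and -4.24, with summed values of 57.5 and 8.69 RPMM. Summed over places, NEXTflex was thus below TruSeq in liver for all 5.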

How the results depend on the processing

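The 6655 called members were 10632 with a limit of 20 on the total, 2727 with a limit of 200 and 143 with whole-number alignments only, where fewer 5′ ends could be tested. The other alternatives gave 4651 to 7072, among them 6972 with TMM (3478 higher, 3494 lower), 6958 with DESeq2's size factors (3653 and 3305) and 6256 with the DESeq2 test (3321 and 2935, with 314 members without an adjusted p). The 2180 members with a changed short share were 1121 with a limit of 200, 1407 with exact alignments and 47 with whole-number alignments. The members themselves numbered 7103 with exact and 3203 with whole-number alignments, and 23059 and 3939 with limits of 20 and 200. Leaving out 1 library gave 5671 to 6976 called members, 1735 to 2120 for the share, 2242 to 2708 called reads summed over places, and differences (v1.5 minus TruSeq) of -13.3 to -11.5 percentage points for the short share, 0.455 to 0.582 for the share on miRNAs and 27.9 to 30.7 for the share of end fragments. The share on miRNAs turned to -0.0465 with exact miRNA 5′ ends only and to -0.0239 without the 9 5′ ends of the largest fragment, an alternative chosen after seeing the data. With library sizes from all deposited counts, short reads were at 20247 RPMM in NF-HiSeq-6 and 96976 in TS-HiSeq-ML, instead of 20305 and 105132.

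Same-numbered TruSeq and v1.5 libraries had correlations of their deviations of 0.0742, 0.00542 and 0.0420. TruSeq replicates 1 and 3 correlated most with the v1.5 library of the same number. TruSeq replicate 2 correlated with v1.5 replicate 2 less than with v1.5 replicate 3 (0.0332). Correlations this weak, over 3 libraries per kit, cannot tell whether same-numbered libraries share RNA. With the replicate block, 7072 members, 2090 shares and 3078 summed reads were called.

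Of the named levels under each alternative, 661 kept direction and call, 42 lost and 11 gained the call and 22 turned, and of the named short shares 329, 26, 3 and 14; the cause was not tested. Levels turned at chr11:96972634 (0.14 with TMM, 0.29 with DESeq2's size factors, 0.29 with the DESeq2 test, 0.039 with whole-number alignments), chr15:12819058 (-0.00093 with all deposited counts, -0.28 with the block, -0.026 with whole-number alignments, -5.42 to 0.57 without 1 library), chr19:31161459 (0.31, 0.46, 0.46, 0.076 with exact and 0.29 with whole-number alignments, -0.18 to 0.0072 without 1 library), chr6:38483946 (1.94 with exact alignments, 2.47 with 15 to 17 nt), chr6:87947239 (0.83) and chr6:113509034 (0.64) with whole-number alignments, chr7:28577824 (0.33 with 15 to 17 nt) and chr9:123438542 (0.083 with DESeq2's size factors and 0.077 with its test). Short shares turned at chr10:23386147 (0.47), chr16:84263789 (-5.17) and chr6:113509034 (1.55) with whole-number alignments, at chr12:110831098 (-0.55 to 0.16 without 1 library, above 0 without v1.5 replicate 3) and chr2:72850967 (-1.26 to 2.38 without 1 TruSeq library, below 0 without TruSeq replicate 1), and with 14 to 16 nt as short at chr11:54148595 (7.03), chr12:110831098 (3.54), chr12:110947279 (-0.41), chr13:48633629 (0.013), chr15:71799439 (-0.41), chr15:85537755 (1.48), chr16:84263789 (-1.71), chr5:139299926 (1.79) and chr6:113509034 (2.12).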
